A study of Arabidopsis thaliana with 6 samples.

Results

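The uptake, regulation and storage of iron in Arabidopsis thaliana were followed here through 10 genes out of the 23640 features in the deposited count table. They were taken by gene identifier: the ferritins FER1 (AT5G01600), FER2 (AT3G11050), FER3 (AT3G56090) and FER4 (AT2G40300), the transcription factors bHLH38 (AT3G56970) and bHLH39 (AT3G56980), the iron transporter IRT1 (AT4G19690), the ferric reductases FRO2 (AT1G01580) and FRO3 (AT1G23020), and the E3 ubiquitin ligase BTS (AT3G18290, BRUTUS). All 10 were present in the table. The groups were 3 libraries from atrx-1 plants and 3 libraries from wild-type (WT) plants, all of the Col ecotype and all made from whole seedlings at 14 days of age after growth in vitro. atrx-1 is a mutant allele of ATRX, a SNF2-type chromatin remodeler. Neither the position of the lesion nor the iron content of the medium is stated in the labels. Total RNA had been depleted of ribosomal RNA, so the counts cover RNA with and without a poly(A) tail.

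Arabidopsis takes up iron by reduction at the root surface: FRO2 reduces ferric iron and IRT1 carries the ferrous ion into root epidermal cells. When iron is short, bHLH38 and bHLH39, acting with the factor FIT, switch on FRO2 and IRT1, and BTS restrains this response by marking upstream bHLH factors for degradation. When iron is plentiful, ferritins, which in plants sit mainly in plastids, hold the excess, and transcripts of ferritins and of the deficiency response usually run in opposite directions.

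For 9 of the 10 genes, the 250 bases upstream of the start in the RefSeq annotation of TAIR10.1 were searched for the G-box CACGTG, one of the motifs that bHLH factors bind. The motif reads the same on both strands, and each copy was counted once. It was found upstream of 3 of the 9 genes, against 6.49% of the 27443 protein-coding promoters of the same length. FER3 carried it 76 bases and bHLH38 97 bases upstream of the start, and BTS carried 3 copies, at 146, 124 and 70 bases. The 3 promoters with the motif are printed because they belong to both arms of the system, storage and deficiency response, and bHLH39 is added because it is the neighbouring paralog of bHLH38 and had no copy. Sequences run 5′ to 3′ on the gene's strand and capitals mark the G-box.
FER3 (chr3:20816036-20816285, minus strand): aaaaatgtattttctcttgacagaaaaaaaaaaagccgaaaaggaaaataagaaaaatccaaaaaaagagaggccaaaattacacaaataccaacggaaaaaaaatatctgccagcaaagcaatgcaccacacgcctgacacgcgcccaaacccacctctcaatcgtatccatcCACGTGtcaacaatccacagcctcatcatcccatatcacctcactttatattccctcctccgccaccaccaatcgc
bHLH38 (chr3:21085246-21085495, minus strand): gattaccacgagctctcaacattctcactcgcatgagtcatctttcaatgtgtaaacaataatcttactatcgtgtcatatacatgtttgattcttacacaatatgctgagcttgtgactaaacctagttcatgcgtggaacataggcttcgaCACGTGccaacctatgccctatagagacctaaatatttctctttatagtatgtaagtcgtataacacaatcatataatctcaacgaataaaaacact
bHLH39 (chr3:21087711-21087960, minus strand): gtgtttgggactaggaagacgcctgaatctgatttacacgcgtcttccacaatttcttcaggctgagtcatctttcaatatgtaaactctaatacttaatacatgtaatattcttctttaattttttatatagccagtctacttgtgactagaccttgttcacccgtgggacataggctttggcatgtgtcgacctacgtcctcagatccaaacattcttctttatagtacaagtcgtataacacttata
BTS (chr3:6273716-6273965, plus strand): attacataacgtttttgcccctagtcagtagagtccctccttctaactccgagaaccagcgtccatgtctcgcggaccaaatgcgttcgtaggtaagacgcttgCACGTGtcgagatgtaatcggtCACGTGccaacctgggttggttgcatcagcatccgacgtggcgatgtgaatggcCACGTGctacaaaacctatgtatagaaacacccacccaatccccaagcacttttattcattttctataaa
FER1, FER2, IRT1, FRO2 and FRO3 likewise had no copy in this window. A match describes the letters of the window and is not a measured binding site.

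Library totals ran between 2887834 and 14001726 counts in atrx-1 and between 936243 and 3624088 counts in WT. One read was worth between 0.0686 and 0.319 CPM in atrx-1 and between 0.301 and 1.09 CPM in WT, where CPM puts the counts of all libraries on 1 scale with TMM factors. ATRX itself was at 1.29 ± 0.598 CPM in atrx-1 and 5.38 ± 0.529 CPM in WT (SD, n = 3 each), with no overlap between the groups (log2 fold change -2.09 ± 0.38, SE, edgeR adjusted p = 0.0536). Since no label says that the libraries came from separate cultures, every p-value here reflects the variation among these 6 samples, and that variation may be technical. The log2 fold change also ran with gene length across genes (Spearman 0.575 over 13682 nuclear genes, which are not independent), and this trend is named below where it touches a result. In bulk seedling RNA, fewer cells of a type and less RNA per cell cannot be told apart.

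No difference between atrx-1 and WT was detected for any of the 10 iron genes. Of the 5 that passed the low-count filter (FER1, FER3, FER4, FRO3 and BTS), 0 were past an adjusted p of 0.05 in edgeR, where 0.116% of the 13819 tested features were past it, and 0 had an unadjusted p under 0.05, where 19.5% of the tested features did. With the low-count filter removed, edgeR called 0 of the 10, against 2.57% of features. DESeq2 gave an adjusted p to FER1 and BTS alone among the 10 and called neither, against 3.9% of the features with an adjusted p. The authors' deposited table gave one to FER1, FER4, FRO3 and BTS and called none of them, against 7.06% of the features with an adjusted p. In each of the 10 genes the atrx-1 and WT libraries overlapped, while the groups did not overlap in 23.6% of tested features (atrx-1 higher in 12.2% and lower in 11.4%). The other 5 genes (FER2, bHLH38, bHLH39, IRT1 and FRO2) failed the filter and were fitted only with the filter removed. What the values did show was a difference among libraries of 1 genotype, which may be technical. Within its group, atrx-1 library 3 was highest for FER1, FER3 and FER4 and lowest for bHLH38, bHLH39, IRT1, FRO3 and BTS. WT library 3 was highest for these last 5 and for FRO2. Among tested features, 36.8% were highest and 40.2% lowest in atrx-1 library 3 within its group, and 29.3% were highest in WT library 3. For bHLH38, bHLH39, IRT1 and FRO2 these orders rest on few reads.

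**Figure D1:**
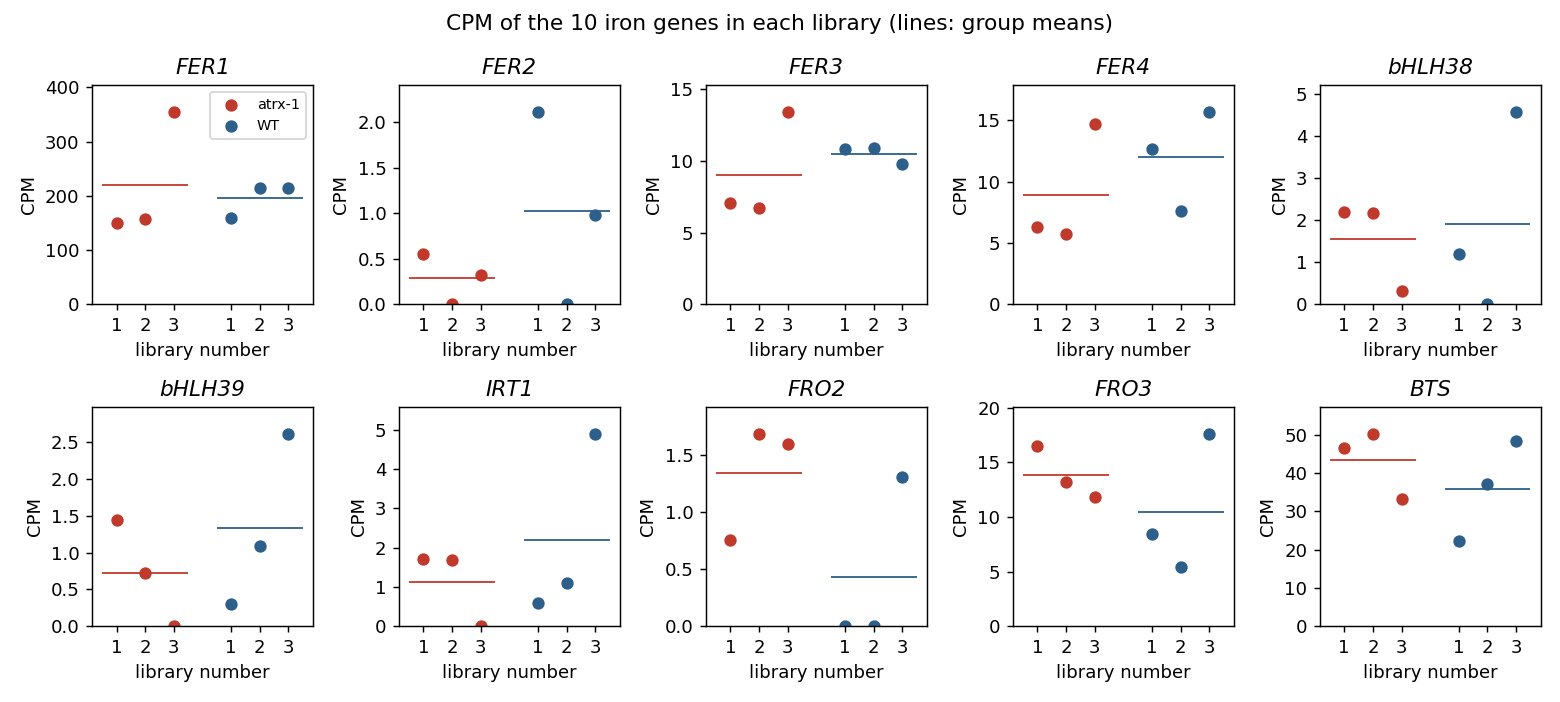
CPM of each of the 10 iron genes (vertical axis, linear, own scale per gene) in atrx-1 libraries 1, 2 and 3 (red) and WT libraries 1, 2 and 3 (blue), with a line at each group mean. The groups overlap in every panel, and atrx-1 library 3 stands highest of its group for FER1, FER3 and FER4 and lowest for bHLH38, bHLH39, IRT1, FRO3 and BTS.

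FER1, the main leaf ferritin (TAIR10 chromosome 5, 227953 to 230051, protein-coding), was the most abundant of the 10 genes per length. It had 149.6, 158 and 354 CPM in atrx-1 libraries 1, 2 and 3, against 159, 215 and 214 CPM in WT libraries 1, 2 and 3. Library 3 of atrx-1 was the highest of all 6, and the other atrx-1 libraries were the lowest of all 6. The mean was 220.5 ± 116 CPM in atrx-1 and 196 ± 32.5 CPM in WT (SD, n = 3 each), and the log2 fold change was 0.17 ± 0.31 (SE, 95% interval -0.51 to 0.84, edgeR adjusted p = 0.814). Leaving out atrx-1 library 3 turned the sign, to -0.35 (edgeR adjusted p = 0.474).

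FER3 (chromosome 3, 20814047 to 20816035) and FER4 (chromosome 2, 16831293 to 16833280), ferritins of leaves and other vegetative organs, were far less abundant. FER3 had 7.07, 6.73 and 13.4 CPM in atrx-1 libraries 1, 2 and 3, against 10.8, 10.9 and 9.77 CPM in WT libraries 1, 2 and 3. FER4 had 6.32, 5.77 and 14.7 CPM in the atrx-1 libraries, against 12.6, 7.65 and 15.6 CPM in the WT libraries. As with FER1, atrx-1 library 3 was about level with or above the highest WT library, whereas atrx-1 libraries 1 and 2 were below every WT library for both genes. The log2 fold change was -0.28 ± 0.30 for FER3 (SE, 95% interval -0.93 to 0.36, edgeR adjusted p = 0.647) and -0.64 ± 0.36 for FER4 (SE, 95% interval -1.42 to 0.13, edgeR adjusted p = 0.347). Single libraries moved these values: FER3 was at -0.07, -0.12 and -0.58 without atrx-1 library 1, 2 and 3, and -0.12 with the length trend removed. FER4 was at -0.35, -0.41 and -1.07 without atrx-1 library 1, 2 and 3 (edgeR adjusted p between 0.126 and 0.782), and at -0.45 with the length trend removed.

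FER2 (chromosome 3, 3463598 to 3465506), the ferritin known from seeds, was close to the detection limit. It had 8, 0 and 1 reads in atrx-1 libraries 1, 2 and 3 (0.549, 0 and 0.319 CPM), against 7, 0 and 3 reads in WT libraries 1, 2 and 3 (2.11, 0 and 0.977 CPM). The zeros allow up to 0.721 CPM in atrx-1 library 2 and up to 3.28 CPM in WT library 2, at 3 reads each; limits of this kind cover counting error only. With no low-count filter the log2 fold change was -1.67 ± 0.83 (SE, edgeR adjusted p = 0.327). The summed CPM of 5 seed markers was 35.9, 39.2 and 14.7 in the atrx-1 libraries, against 134, 76.5 and 37.1 in the WT libraries. Its groups overlapped, as the sum in atrx-1 library 2 was above that in WT library 3. EM1, 1 of the 5, had 1, 1 and 0 reads in the atrx-1 libraries and 0 in each WT library. All 3 tested seed markers had lower values in atrx-1 (median log2 fold change -1.70, 0 past the adjusted threshold, 3 at an unadjusted p under 0.05). With no low-count filter, the fit that gave the FER2 value, CRA1, CRC, SESA3 and OLEO1 were past it (edgeR adjusted p between 0.000515 and 0.0329), against 2.57% of features. SESA3, which had the smallest of these values, had 32 reads in WT library 1 and 0 in every other library, and CRC overlapped between the groups. DESeq2 called CRA1 (adjusted p = 0.0251), against 3.9% of the features with an adjusted p. The authors' deposited table gave an adjusted p to CRA1 alone of the 5 markers and did not call it (adjusted p = 0.432). The part of seed RNA in the FER2 values was not tested.

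Added together per kb of gene length, the 4 ferritins reached 118, 122 and 275 CPM per kb in atrx-1 libraries 1, 2 and 3, against 135, 168 and 175 CPM per kb in WT libraries 1, 2 and 3. The mean of 172 ± 89.5 in atrx-1 and 160 ± 21.4 in WT (SD, n = 3 each) differed by less than the spread between libraries. FER1 supplied 90.1% ± 0.814 of the sum in atrx-1 and 86.2% ± 3.75 in WT (SD, n = 3 each). Its share was nearly the same in atrx-1 library 3 (90.5%) as in atrx-1 libraries 1 and 2 (89.2% and 90.7%), so FER1, FER3 and FER4 were high together in that library.

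**Figure D2:**
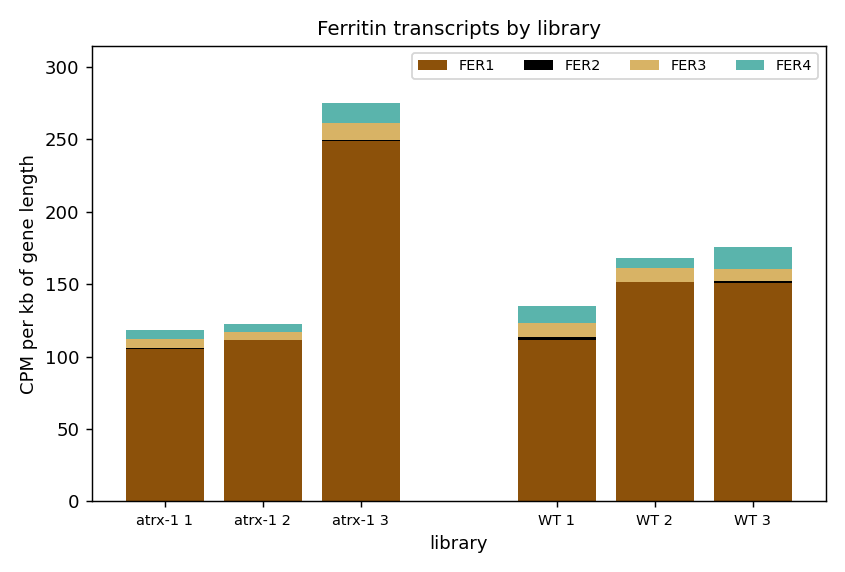
Summed ferritin level in CPM per kb of gene length (vertical axis, from 0) for atrx-1 libraries 1 to 3 and WT libraries 1 to 3, with each bar divided into FER1, FER2, FER3 and FER4. The bar of atrx-1 library 3 reaches 275 CPM per kb, the other atrx-1 bars reach 118 and 122, and the WT bars lie between 135 and 175.

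bHLH38 (chromosome 3, 21084110 to 21085150) and bHLH39 (chromosome 3, 21086546 to 21087494) lie side by side and encode similar factors. bHLH38 had 32, 9 and 1 reads in atrx-1 libraries 1, 2 and 3 (2.20, 2.16 and 0.319 CPM), against 4, 0 and 14 reads in WT libraries 1, 2 and 3 (1.20, 0 and 4.56 CPM). bHLH39 had 21, 3 and 0 reads in the atrx-1 libraries (1.44, 0.721 and 0 CPM), against 1, 1 and 8 reads in the WT libraries (0.301, 1.09 and 2.61 CPM). Both factors were lowest in library 3 among the atrx-1 libraries and highest in library 3 among the WT libraries. With the filter removed, the log2 fold change was -0.38 ± 0.57 for bHLH38 (edgeR adjusted p = 0.783) and -0.44 ± 0.74 for bHLH39 (SE, edgeR adjusted p = 0.799).

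IRT1 (chromosome 4, 10707426 to 10709015), the main root importer of iron, gave 25, 7 and 0 reads in atrx-1 libraries 1, 2 and 3 (1.72, 1.68 and 0 CPM), against 2, 1 and 15 reads in WT libraries 1, 2 and 3 (0.602, 1.09 and 4.89 CPM). As with bHLH38, it was lowest of its group in atrx-1 library 3, where a count of 0 allows up to 0.957 CPM, and highest of all 6 in WT library 3. The log2 fold change without the filter was -0.80 ± 0.62 (SE, edgeR adjusted p = 0.571).

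FRO2 (chromosome 1, 209395 to 213041), the root surface reductase that works beside IRT1, had 11, 7 and 5 reads in atrx-1 libraries 1, 2 and 3 (0.755, 1.68 and 1.59 CPM), against 0, 0 and 4 reads in WT libraries 1, 2 and 3 (0, 0 and 1.30 CPM). It was not low in atrx-1 library 3, unlike IRT1, and it was detected in every atrx-1 library but in WT only in library 3. The zeros allow up to 0.903 CPM in WT library 1, which is below atrx-1 libraries 2 and 3, and up to 3.28 CPM in WT library 2, which is above every atrx-1 library. The log2 fold change without the filter was 1.10 ± 0.88 (SE, edgeR adjusted p = 0.584).

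FRO3 (chromosome 1, 8150070 to 8153530), a reductase assigned to mitochondria and induced by iron shortage, had 16.5, 13.2 and 11.8 CPM in atrx-1 libraries 1, 2 and 3, against 8.43, 5.46 and 17.6 CPM in WT libraries 1, 2 and 3. All atrx-1 libraries lay above WT libraries 1 and 2 and below WT library 3. The log2 fold change was 0.30 ± 0.31 (SE, 95% interval -0.38 to 0.98, edgeR adjusted p = 0.647). Without WT library 3 it was 0.90 (edgeR adjusted p = 0.134), and without WT library 1 it was 0.025 (edgeR adjusted p = 0.981). It was 0.14 without atrx-1 library 1, 0.11 without WT library 2 and 0.086 with the length trend removed.

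BTS (chromosome 3, 6273995 to 6280510), the negative regulator, had 46.7, 50.2 and 33.2 CPM in atrx-1 libraries 1, 2 and 3, against 22.3, 37.2 and 48.5 CPM in WT libraries 1, 2 and 3. It was lowest in atrx-1 library 3 within its group and highest in WT library 3 within its group, as were bHLH38, bHLH39 and IRT1. The log2 fold change was 0.29 ± 0.27 (SE, 95% interval -0.30 to 0.88, edgeR adjusted p = 0.60). BTS is the longest of the 10 genes, at 4414 nt, and with the trend on gene length removed its value was -0.17 (edgeR adjusted p = 0.882). Without WT library 1 it was -0.015 (edgeR adjusted p = 0.985), and without WT library 3 it was 0.65. It was 0.18 without atrx-1 library 2 and 0.44 without atrx-1 library 3.

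Per length, and averaged over the 6 libraries, the order of the levels was FER1 at 147 CPM per kb, FER4 at 9.91, BTS at 8.99, FER3 at 8.63, FRO3 at 5.38, bHLH38 at 1.91, IRT1 at 1.58, bHLH39 at 1.22, FER2 at 0.641 and FRO2 at 0.369. FER1 stood apart, its lowest library (105 CPM per kb) lying above every library of the others. From FER4 down, each gene overlapped its neighbour in this order across the libraries. Among the 5 tested genes the median log2 fold change was 0.17, and -0.12 with the length trend removed, against 0.01 and -0.01 over all tested features.

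**Figure D3:**
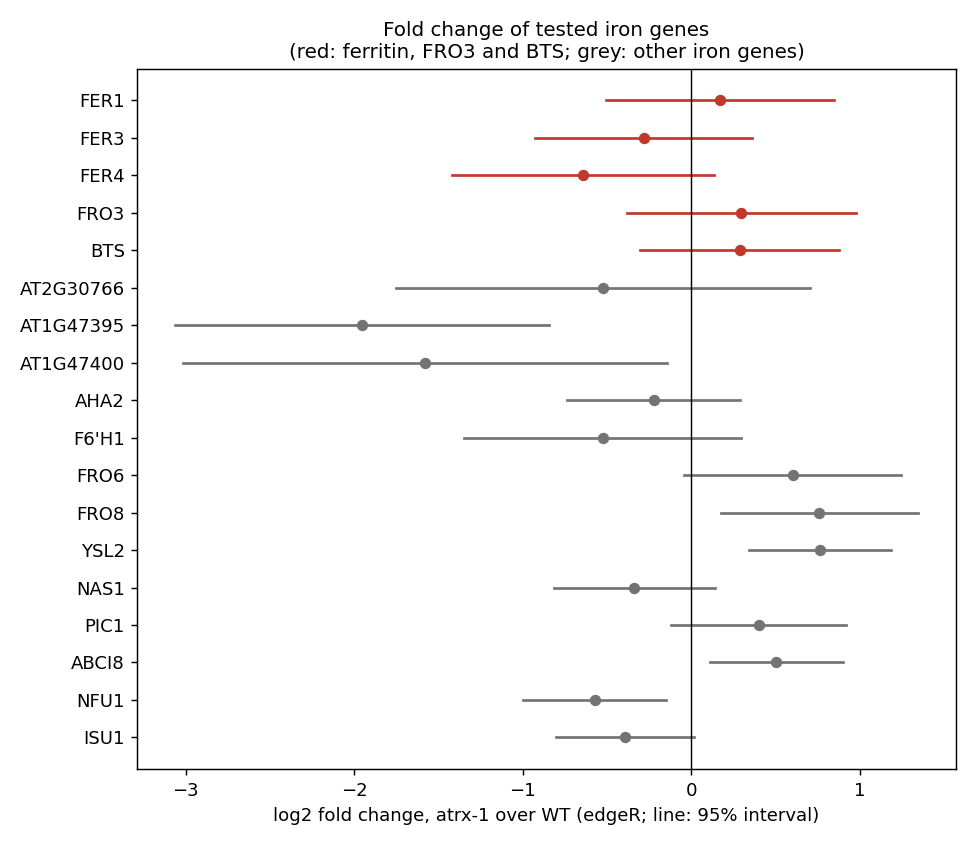
Log2 fold change of atrx-1 over WT (horizontal axis) from edgeR with its 95% interval for the 5 tested members (red) and for 13 other iron genes named by rule (grey). All 5 red intervals cross 0, and the grey point farthest from 0 belongs to AT1G47395, whose adjusted p was 0.0828.

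The contrast between libraries of 1 genotype was then set out as a deviation, the log2 CPM of a library (prior count 2) minus the mean of its own genotype. In atrx-1 library 3 the deviation was 0.80 for FER1, 0.61 for FER3 and 0.82 for FER4, and 99.3%, 98.3% and 99.3% of the 13819 tested features had a lower deviation in that library. FER1 differed 2.37-fold between its highest and lowest atrx-1 library, against a median of 1.32-fold over tested features, and 1.36-fold between its highest and lowest WT library, against a median of 1.68-fold. Of the 4 ferritins, 3 were highest in library 3 among the atrx-1 libraries, where 36.8% of tested features were highest, and FER2 was the exception.

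The 6 genes other than ferritins mostly ran the other way in atrx-1 library 3. Of these, 5 were lowest in library 3 among the atrx-1 libraries (bHLH38, bHLH39, IRT1, FRO3 and BTS), where 40.2% of tested features were lowest, and FRO2 was the exception. All 6 were highest in library 3 among the WT libraries, where 29.3% of tested features were highest. Of the 6, only FRO3 and BTS passed the low-count filter. bHLH38, bHLH39, IRT1 and FRO2 had 0, 1, 1 and 0 reads in WT library 2. Counting error there allows up to 4.03, 6.09, 6.09 and 4.03 CPM (95% Poisson interval). This is above the WT library 3 value for bHLH39, IRT1 and FRO2 and slightly below it for bHLH38. The summed level of the 6 genes was 69.3, 69.7 and 46.9 CPM in atrx-1 libraries 1, 2 and 3, against 32.8, 44.8 and 79.5 CPM in WT libraries 1, 2 and 3. Most of each sum came from FRO3 and BTS, so it says little about the other genes. FRO3 and BTS were at 11.8 and 33.2 CPM in atrx-1 library 3 and at 17.6 and 48.5 CPM in WT library 3. In WT library 3 the deviation was 0.88 for FRO3 and 0.50 for BTS, above 98.6% and 92.9% of tested features. The ferritins were not correspondingly low in WT library 3: FER1 was at 0.14, FER3 at -0.10 and FER4 at 0.43.

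The wider iron list, 64 genes outside the 10, was divided in atrx-1 library 3. Its tested genes had a median deviation of -0.03 there, against -0.01 over all tested features. Of its 43 tested genes, 19 (44.2%) were lowest and 13 (30.2%) highest in library 3 among the atrx-1 libraries, against 40.2% and 36.8% of tested features. In WT library 3 the median was 0.22, against 0.02 over all tested features, and 23 of the 43 (53.5%) were highest there among the WT libraries, against 29.3% of tested features. Single genes went far in both directions. AT2G30766, AT1G47400 and AT1G47395, entries of that list that are annotated as unknown proteins, had deviations of -2.02, -1.90 and -1.74 in atrx-1 library 3 and ranked 2, 3 and 4 from the lowest of the 13819 tested features there. These values rest on 8, 0 and 1 reads in that library. AT2G30766 had 23.9, 23.8 and 2.55 CPM in atrx-1 libraries 1, 2 and 3, against 12.6, 14.2 and 45.6 CPM in WT libraries 1, 2 and 3. Among genes chosen after their values were seen, bHLH100 and bHLH101, paralogs of bHLH38, deviated by -1.15 and -1.10 in atrx-1 library 3, and OPT3, a phloem iron transporter that takes part in signalling shoot iron status, by -0.67. Of these, bHLH100 and bHLH101 failed the low-count filter, with 0 and 2 reads in atrx-1 library 3, and OPT3 passed it. In the opposite direction, IRT2, a relative of IRT1, deviated by 1.25 in atrx-1 library 3, the nicotianamine synthase gene NAS3 by 1.21, VTL1 by 1.32 and FRO4 by 0.66; of these 4 only FRO4 passed the low-count filter. FIT, which partners bHLH38 and bHLH39, was not low in atrx-1 library 3, with deviations of -0.29, 0.18 and 0.12 in the atrx-1 libraries and 0.39, -0.52 and 0.13 in the WT libraries. FIT also failed the filter, with 5 reads in atrx-1 library 3 and 1 read in WT library 2.

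**Figure D4:**
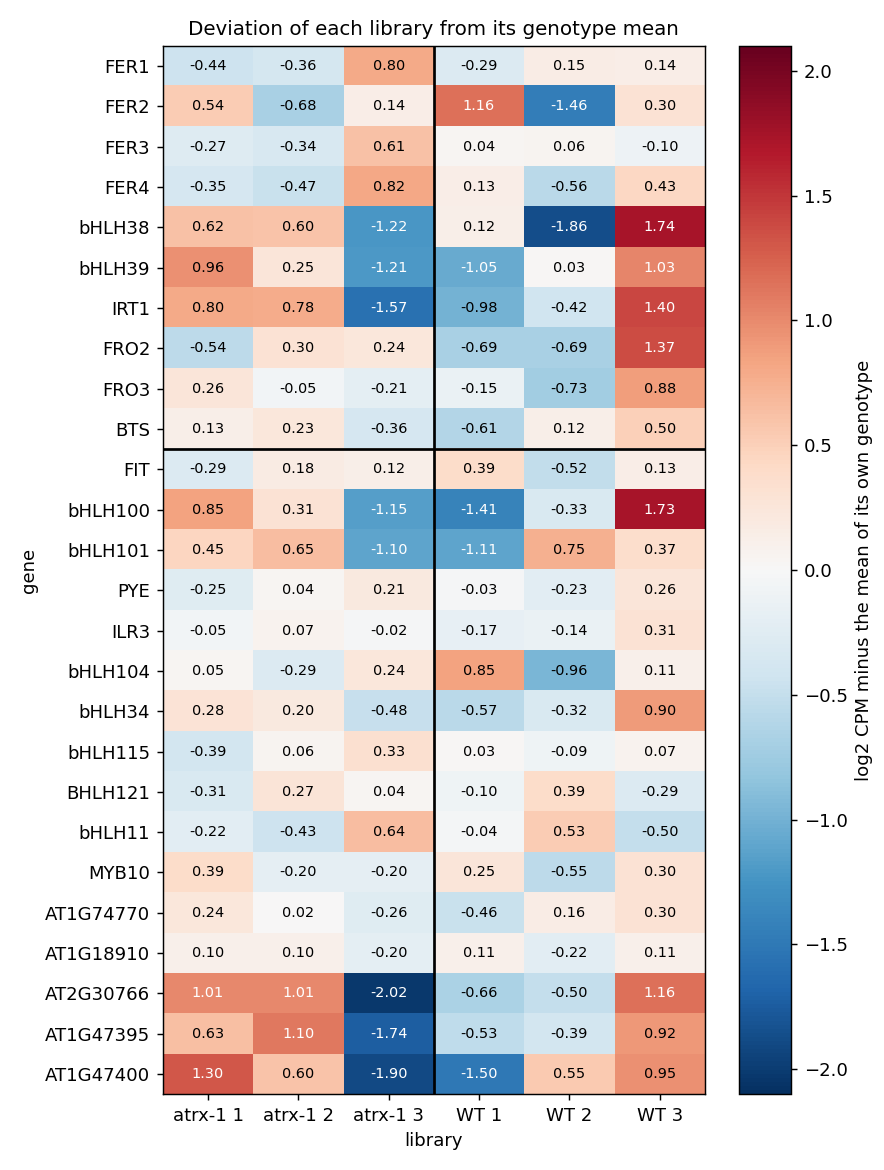
Deviation of each library (columns, atrx-1 libraries 1 to 3 left and WT libraries 1 to 3 right of the line) from the mean of its own genotype in log2 CPM, for the 10 iron genes (above the line) and all 16 genes of the regulator list in the table (below it); red is above and blue below the mean. In the atrx-1 library 3 column FER1, FER3 and FER4 are between 0.61 and 0.82, and of the 16 regulator genes 10 are below and 6 above the mean, from -2.02 for AT2G30766 to 0.64 for bHLH11.

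Cell type markers were examined beside these values. The summed CPM of 11 root markers was 39.9, 38.9 and 55.2 in atrx-1 libraries 1, 2 and 3, against 64.4, 49.2 and 56.4 in WT libraries 1, 2 and 3, so it was highest in library 3 among the atrx-1 libraries, where IRT1 was at 0. Between genotypes, 6 of the 8 tested root markers had lower values in atrx-1 (median log2 fold change -0.44, 0 past the adjusted threshold), and the nitrate transporter gene NRT2.1 was at 0 in all 6 libraries. The summed CPM of 7 green shoot markers lay between 14800 and 15300 in atrx-1 and between 9970 and 17300 in WT. Seed markers moved with the libraries: their 3 tested members had a median deviation of -1.02 in atrx-1 library 3 and -0.72 in WT library 3, and their summed CPM, given beside FER2, was lowest in library 3 of each genotype. Chloroplast 23S ribosomal RNA was also far above its group mean in atrx-1 library 3 (a deviation of 5.49 on the log2 scale), and the part of seed RNA and of ribosomal RNA in the iron gene values was not tested.

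The wider iron system was read from a list of 64 genes, of which 63 were in the table and 43 were tested. Of the 43, 22 had a positive and 21 a negative log2 fold change, 0 passed the adjusted threshold and 6 had an unadjusted p under 0.05, where 19.5% of all tested features did. The groups did not overlap in 7 of the 43 (4 higher and 3 lower in atrx-1), against 23.6% of all tested features. The median was 0.04, and -0.03 with the length trend removed. Among 11 tested genes of the regulator list 3 were higher and 8 lower (median -0.52, and -0.28 with the length trend removed). AT1G47395 had 3.36, 4.81 and 0.319 CPM in atrx-1 libraries 1, 2 and 3, against 6.92, 7.65 and 19.6 CPM in WT libraries 1, 2 and 3. Its groups did not overlap, and its log2 fold change of -1.96 ± 0.51 (SE) had an edgeR adjusted p of 0.0828. AT1G47400 was at -1.58 ± 0.66 (SE, edgeR adjusted p = 0.214) and AT2G30766 at -0.52 ± 0.57 (SE, edgeR adjusted p = 0.655). Without WT library 1, AT1G47395 (edgeR adjusted p = 0.0291) and AT1G47400 (edgeR adjusted p = 0.0442) passed, and with no filter AT1G47395 did (edgeR adjusted p = 0.00202). With the length trend removed AT1G47395 was at -1.30, with an edgeR adjusted p of 0.409, and it is 375 nt long. In that fit AT1G47400 was at -1.01, and AT2G30766 turned its sign, to 0.08.

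At the root surface, 1 of 3 tested genes was higher and 2 lower (median -0.22, and -0.46 with the length trend removed). The proton pump AHA2, which acidifies the soil around roots, was at 111 ± 3.58 CPM in atrx-1 and 128 ± 43.4 CPM in WT (SD, n = 3 each), and F6'H1, an enzyme of coumarin synthesis, had a log2 fold change of -0.53 ± 0.38 (SE, edgeR adjusted p = 0.475). The log2 fold change of AHA2 was -0.22, and -0.58 with the length trend removed. Of 5 tested reductases and ZIP relatives, 3 were higher and 2 lower (median 0.46, and 0.195 with the length trend removed). FRO6, a leaf reductase, was at 202 ± 12.3 CPM in atrx-1 and 135 ± 61.7 CPM in WT (SD, n = 3 each), a log2 fold change of 0.60 ± 0.30 (SE, edgeR adjusted p = 0.288). FRO8 was at 11.8 ± 2.26 CPM in atrx-1 and 6.79 ± 1.95 CPM in WT (SD, n = 3 each), without overlap (log2 fold change 0.76 ± 0.27, SE, edgeR adjusted p = 0.151). With the length trend removed, FRO6 was at 0.349 and FRO8 at 0.515.

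Of 11 tested genes of iron transport and chelation 8 were higher and 3 lower (median 0.15, and -0.05 with the length trend removed). YSL2, a transporter of metal complexes with nicotianamine, had 36.9, 35.6 and 42.4 CPM in atrx-1 libraries 1, 2 and 3, against 21.1, 28.4 and 20.5 CPM in WT libraries 1, 2 and 3. The groups did not overlap, and the log2 fold change of 0.76 ± 0.20 (SE) had an edgeR adjusted p of 0.0789, which was 0.0406 with no filter and 0.363 with the length trend removed. NAS1, which makes nicotianamine, was at 21.4 ± 3.07 CPM in atrx-1 and 27.7 ± 6.57 CPM in WT (SD, n = 3 each), and PIC1, an iron permease of the chloroplast envelope, was at 10.7 ± 0.626 CPM in atrx-1 and 7.85 ± 1.70 CPM in WT (SD, n = 3 each). FPN1, an iron exporter of the root vasculature that failed the filter and was chosen after its values were seen, had 3.16, 2.40 and 2.87 CPM in the atrx-1 libraries, against 0.903, 1.09 and 0.977 CPM in the WT libraries (no-filter log2 fold change 1.60 ± 0.58, SE, edgeR adjusted p = 0.131).

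Iron-sulfur cluster assembly, a main use of iron in plastids and mitochondria, was divided: of 13 tested genes 7 were higher and 6 lower (median 0.10, and 0.03 with the length trend removed). The scaffold gene NFU1 was at 27.8 ± 1.75 CPM in atrx-1 and 40.2 ± 8.78 CPM in WT (SD, n = 3 each), a log2 fold change of -0.57 ± 0.19 (SE, edgeR adjusted p = 0.135). ABCI8, a subunit of the plastid SUF assembly complex, was at 54.6 ± 5.26 CPM in atrx-1 and 37.9 ± 3.48 CPM in WT (SD, n = 3 each), a log2 fold change of 0.50 ± 0.18 (SE, edgeR adjusted p = 0.158). The mitochondrial scaffold gene ISU1 was at 52.6 ± 4.37 CPM in atrx-1 and 68.6 ± 9.49 CPM in WT (SD, n = 3 each), a log2 fold change of -0.39 ± 0.19 (SE, edgeR adjusted p = 0.269). In these 3 of the 13 genes the groups did not overlap (1 higher and 2 lower in atrx-1), against 23.6% of all tested features. With the length trend removed, NFU1 was at -0.38, ABCI8 at 0.37 and ISU1 at -0.12. The authors' deposited table called YSL3, a relative of YSL2 (adjusted p = 0.0325), and CPISCA, a plastid iron-sulfur scaffold gene (adjusted p = 0.036), among the wider genes. The main fit here called neither, and both genes overlapped between the groups. YSL3 was at 0.22 (edgeR adjusted p = 0.746) and CPISCA at -0.36 (edgeR adjusted p = 0.395). With the length trend removed, YSL3 was at -0.05 and CPISCA at -0.07. YSL3 and CPISCA were the 2 called among the 63 wider genes present. Many of the 63 had no adjusted p. The 2 of 63 is therefore not a share to set beside the 7.06% called among features with an adjusted p.

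The genes whose log2 CPM ran most like that of FER1 over the 6 libraries, among 6891 nuclear genes with a mean of at least 10 CPM, were AT1G03930 (ADK1, a dual specificity kinase, Pearson r = 0.979), PFK7 (a phosphofructokinase, r = 0.965) and TULP9 (a Tubby-like F-box protein, r = 0.956). ADK1 had 15.4, 15.1 and 24.6 CPM in atrx-1 libraries 1, 2 and 3, against 15.3, 17.5 and 19.5 CPM in WT libraries 1, 2 and 3. These are the best of many candidates over few libraries, which share their depth and scaling, and they describe a likeness only.

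In TAIR10.1, 5 of the 10 genes (FER1, FER2, FER4, bHLH38 and FRO3) overlap another annotated gene, as do AT2G30766 and bHLH101 among others of the wider list. The genes that overlap AT2G30766 are AT2G30760 and AT2G30770. AT2G30750 (CYP71A12) has an identifier near that of AT2G30766 but does not overlap it. It was also among the 10 lowest features in atrx-1 library 3, with a deviation of -1.52. Whether counting used the strand is not stated, so reads of an overlapping neighbour cannot be told apart. The ferritins, the neighbouring bHLH38 and bHLH39, the IRT and FRO families, and the pair AT1G47395 and AT1G47400 have similar sequences, and how reads with several matches were shared among them is likewise not stated.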

How the data were processed

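RNA of 6 libraries was grouped by the genotype in the labels. Trizol extraction and ribosomal RNA depletion are given per the labels' protocols. The genome build TAIR10 and, in no stated order, HTSeq 0.6.1, DESeq, DESeq2 1.6.3, TopHat2 2.0.14, CASAVA 1.8.2 and Bowtie2 2.1.0 are named per the submitters' processing notes. Per the file headers, the authors deposited raw read counts per gene, a normalized signal and its value per kb (whose ratio gave gene lengths), and, for their own comparison, a p-value (raw and adjusted) with a log2 fold change.

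The counts were tested with edgeR 4.0.16 in R 4.3.3 (TMM, filterByExpr with a minimum count of 10 and a minimum total of 15, glmQLFit, glmQLFTest), with Benjamini-Hochberg adjustment over all 13819 features kept and a threshold of 0.05. Standard errors came from the F statistic. CPM used the fit's effective library sizes. The code was tested on simulated data. WT library 2 was the shallowest, at 936243 counts, so that 1 read is worth 1.09 CPM there.

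The members and lists were chosen with earlier results of these data known. All 10 members are named. From each wider list the rule named the 2 genes with the smallest p and the 1 with the highest CPM per kb. It also named ATRX and the 3 genes most like FER1. Genes outside this rule are marked as chosen after their values were seen, or are named because another tool called them or because they belong to the pathway (FIT). MYB72 of the wider list was not analysed here. Alternatives were RLE size factors, DESeq2 1.42.0, nuclear genes only, no filter, a stricter filter, a replicate block, removal of the length trend (lowess, span 0.3) and leaving out each library. Promoters came from the RefSeq TAIR10.1 genome, and 1 promoter of the 10 is not reported here. Of the feature identifiers, 23391 matched it.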

Additional observations from a re-analysis of the deposited data

How the results depend on the processing

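The number of member genes past the threshold was 0 under all 14 alternatives, among which DESeq2 gave an adjusted p to FER1 and BTS alone. FER3, FER4 and FRO3 kept their direction under all 14. FER1 turned to -0.35 without atrx-1 library 3, and BTS turned to -0.17 with the length trend removed, -0.13 with the length trend removed and a replicate block, and -0.015 without WT library 1; leaving out 1 library gave -0.35 to 0.39 for FER1 and -0.015 to 0.65 for BTS, no value of either was past the threshold, and the cause was not tested. The number of all genes past the threshold was 16, and 38 with RLE size factors, 220 with DESeq2, 592 with no filter, 34 with a replicate block, 0 with the length trend removed, 1 with both, and between 0 and 378 leaving out 1 library. Deviations from the group mean correlated at r = 0.064, 0.057 and -0.079 for same-numbered libraries and between -0.132 and 0.088 for the others. With 3 libraries per group this cannot decide whether the replicate numbers pair the samples. The replicate block called 0 members. Of the wider genes, 2 of 62 passed with no filter (AT1G47395 and YSL2), against 2.57% of features, and between 0 and 3 did leaving out 1 library. The 3 passed without WT library 1, of 47 tested there, where 378 of 14487 features passed: YSL3 at 0.90, AT1G47395 at -2.34 and AT1G47400 at -2.16. Depth limits FER2, bHLH38, bHLH39, IRT1 and FRO2, which had at most 32 reads in a library.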
